A study of Drosophila melanogaster with 9 samples.

Results

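The genes described here are those with which a nerve cell fires and signals. They are 47 *Drosophila melanogaster* genes chosen by name for ion channels, transmitter receptors, enzymes and transporters of transmitter metabolism, proteins of the synaptic vesicle and of the active zone, and the neuronal proteins *elav*, *Fas2* and *futsch*. A gene counted as measured when the platform annotation of the Affymetrix Drosophila Genome 2.0 array gave its symbol, and no other, to a probe set. Where several probe sets qualified, the brightest on average across all 9 arrays represented the gene. In this way 43 of the 47 were measured, out of 11982 genes on the array. The other 4 had no probe set of their own name and were not analysed here. They are *Syt1*, the calcium sensor of vesicle release, *Syx1A*, a SNARE protein of the presynaptic membrane, the nicotinic receptor subunit *nAChRalpha6* and the adhesion molecule *Fas2*.

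RNA came from 3 groups of 3 arrays each. BG3 is an established line of male cells that originated in the central nervous system of larvae. It was measured after Mock RNAi and after Ph RNAi, a treatment for 5 days with 10 µg per well of double-stranded RNA directed at sequence shared by *ph-p* and *ph-d*, the paired genes for the Polyhomeotic subunit of the Polycomb repressive complex PRC1. The last group was the wing imaginal disc of *yw* larvae late in their last instar, in pools of dissected discs from both sexes. The study used these arrays to ask how PRC1 relates to the transcription of silent and of active genes. No dsRNA is named for Mock RNAi, so responses to dsRNA as such and to loss of Ph cannot be told apart. Neither *ph-p* nor *ph-d* has a named probe set, so their RNA gives no check of the depletion here. Replicates are titled biological, without word on separate cultures, so p-values reflect only how far these samples differ, which may be technical.

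At a chemical synapse, calcium enters the terminal through the channel encoded by *cac* when an action potential arrives. SNARE proteins (nSyb on the vesicle, Syx1A and Snap25 on the plasma membrane) then fuse primed vesicles with the membrane, with complexin (*cpx*) clamping and promoting the step and Unc-13 priming the vesicles beforehand. Transmitter acts on receptors of the next cell, of which the nicotinic acetylcholine receptors carry most fast excitation in the fly brain and the GluRII receptors that of the larval muscle. Many genes of this kind are transcribed in differentiated neurons and kept silent elsewhere. The RNA-binding protein Elav is the most widely used marker of postmitotic neurons in flies.

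The values are log2 expression values from GCRMA, which corrects for background with the probe sequences, and their distribution had 2 modes. In BG3 cells the lower mode peaked at 1.88 and the upper mode at 8.92, with the minimum between them at 4.03. On the wing disc arrays the peaks lay at 0.59 and 6.92 and the minimum at 2.89. A gene whose group mean lay above the minimum is said here to be in the upper mode. Signals in the lower mode are near the bottom of the scale, where a gene can hardly fall further and where intervals are narrow in part for that reason. The array medians were 2.208 to 2.231 in BG3 cells and 0.827 to 0.842 in wing disc, so the tissues were treated as normalized apart, and no difference between disc and BG3 cells was tested. Ranks within an array, as percentiles among all genes, also reflect how well the probes of each gene bind.

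Most of these neuronal genes were in the lower mode everywhere, and 4 were in the upper mode in BG3 cells. The 4 were *cpx*, *unc-13*, *elav* and *cac*, which is 9.3% of the 43 in Mock RNAi and the same 4 in Ph RNAi, whereas 46.2% of all genes were in the upper mode in Mock RNAi and 46.6% in Ph RNAi. In wing disc the upper mode held 2 of the 43, *unc-13* and *elav* (4.65%, against 48.0% of all genes). The median gene of the 43 ranked at percentile 37.0 on the Mock RNAi arrays, 36.1 on the Ph RNAi arrays and 35.2 on the wing disc arrays. In the other 39 genes every group mean was in the lower mode, and 36 of the 43 genes stayed in it on every array. Across the 39 the Mock RNAi values ran from 1.33 to 4.64, the Ph RNAi values from 1.45 to 4.29 and the wing disc values from 0.22 to 2.43. Only *sei* (4.34 in Mock RNAi replicate 2), *nAChRbeta2* (4.64 in Mock RNAi replicate 2) and *Ace* (4.29 in Ph RNAi replicate 2) crossed the minimum, each on a single array.

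**Figure D1:**
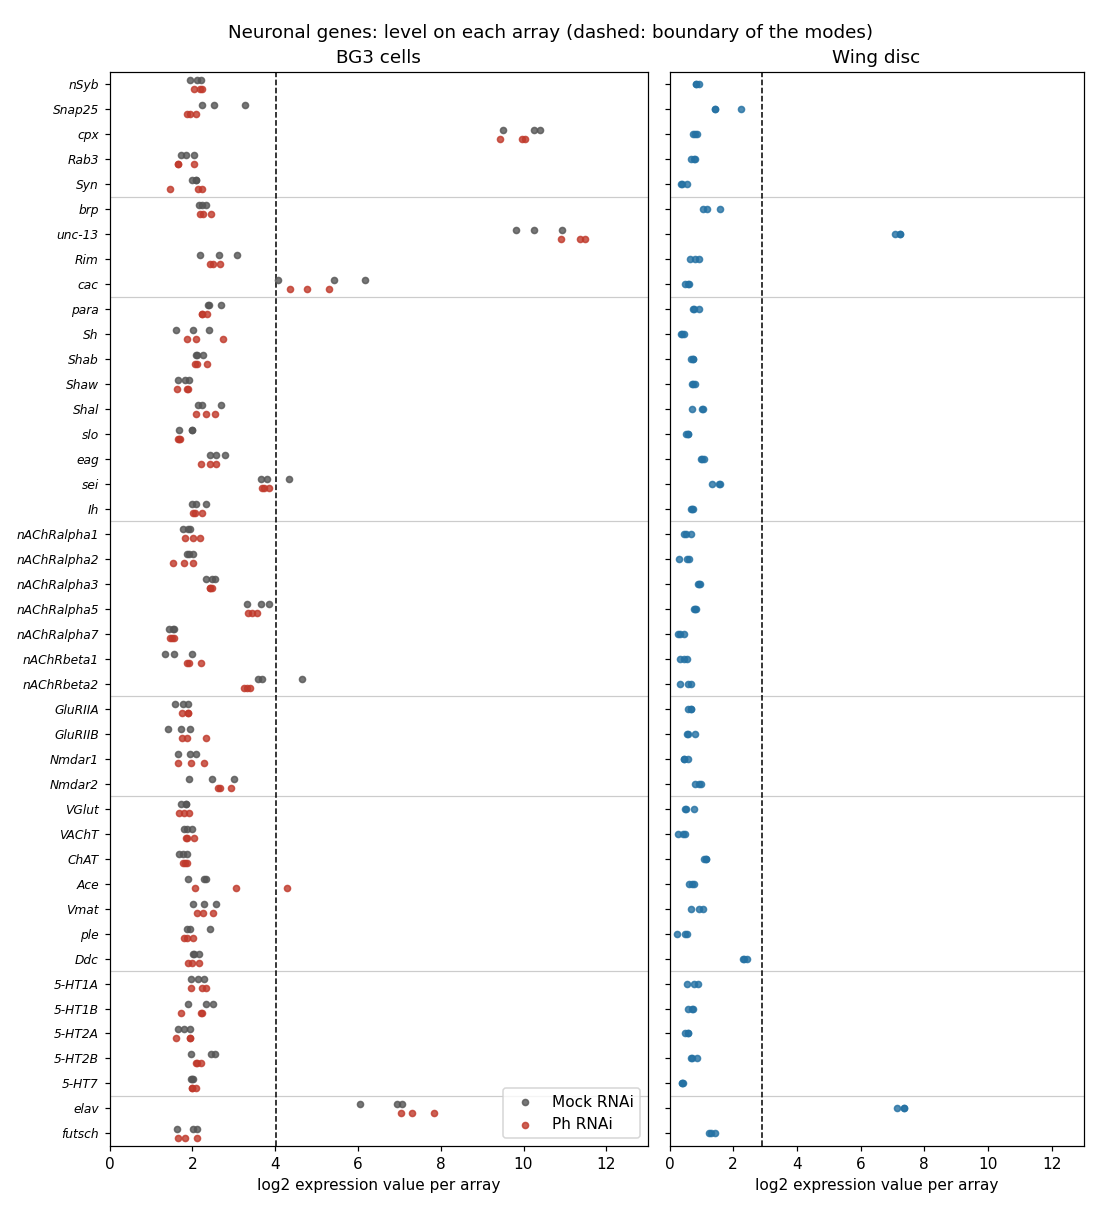
Log2 expression value (x axis) of the 43 measured neuronal genes (rows, grouped by role) on each array, with Mock RNAi in grey and Ph RNAi in red on the left and wing disc in blue on the right. The points of *cpx*, *unc-13*, *cac* and *elav* lie right of the dashed minimum between the modes in BG3 cells (4.03), and those of *unc-13* and *elav* in wing disc (2.89).

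After Ph RNAi none of the 43 genes was called, in either direction, at an adjusted p under 0.05 (limma, Benjamini-Hochberg over 11982 genes). Among all genes 4.77% were called, 3.2% higher and 1.57% lower. Among the 5711 genes that were in the upper mode in Mock RNAi or Ph RNAi, to which only 4 of the neuronal genes belong, 8.54% were called. At an unadjusted p under 0.05 there were 3 of the 43, *unc-13*, *Snap25* and *Ace*, against 16.5% of all genes. The change was positive for 18 genes and negative for 25, with a median of -0.01 on the log2 scale beside -0.03 for all genes. In 38 of the 43 its size was under 0.5.

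The 95% intervals of the change stayed within 1 log2 unit either way in 37 genes. Of these 36 were lower-mode genes, whose narrow intervals say little about how large a change took place. In *unc-13*, *Ace* and *elav* they reached a rise of 1 or more, and in *cac*, *Snap25* and *nAChRbeta2* a fall of 1 or more. The arrays of the groups did not overlap in 3 genes, *Snap25*, *para* and *nAChRbeta2*, in each of which all Ph RNAi arrays were lower (13.6% of all genes did this). There was no gene with all Ph RNAi arrays higher, which 9.91% of all genes showed.

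**Figure D2:**
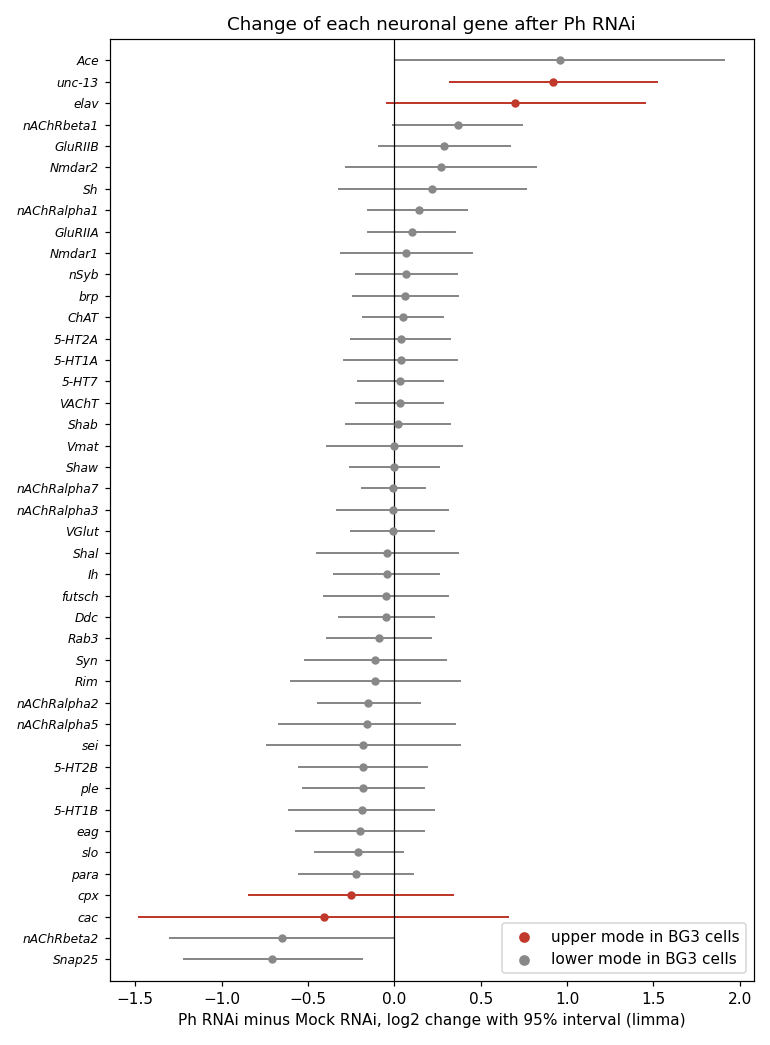
Change of each measured neuronal gene after Ph RNAi (x axis, Ph RNAi minus Mock RNAi on the log2 scale, points) with its 95% interval from limma (bars, 3 arrays per group), ordered by size. Genes in the upper mode in BG3 cells are red, and the changes run from -0.71 for *Snap25* to 0.96 for *Ace*.

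Of the 5 measured vesicle release genes complexin alone was in the upper mode, and it was so in BG3 cells but not in wing disc. *cpx* stood at 9.51, 10.26 and 10.4 on the Mock RNAi arrays, at 9.96, 10.03 and 9.42 on the Ph RNAi arrays and at 0.73, 0.86 and 0.8 on the wing disc arrays. It was therefore in the upper mode on all 6 arrays of BG3 cells, near percentile 90.1 in Mock RNAi and 88.0 in Ph RNAi, and in the lower mode on the 3 disc arrays, at percentile 38.5. A second *cpx* probe set gave the same split, with means of 9.14 in Mock RNAi, 8.77 in Ph RNAi and 0.42 in wing disc. Both probe sets are of the type that can match transcripts of more than a single gene, although the annotation gave them *cpx* alone. The groups of BG3 arrays overlapped, with means of 10.06 ± 0.48 and 9.8 ± 0.33 (SD, n = 3 each) and a change of -0.25 ± 0.27 (SE, limma adjusted p = 0.714, interval -0.84 to 0.34). It was -0.526 without Mock RNAi replicate 1 and -0.06 with Ph RNAi replicate 3 left out.

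The SNARE genes specific to neurons were in the lower mode. *nSyb*, the synaptobrevin of synaptic vesicles, had means of 2.09 in Mock RNAi, 2.16 in Ph RNAi and 0.86 in wing disc. *Snap25* stood at 3.27, 2.52 and 2.24 on the Mock RNAi arrays, at 2.08, 1.95 and 1.88 on the Ph RNAi arrays, and at 1.42, 2.23 and 1.43 in wing disc. All 3 Ph RNAi arrays of *Snap25* were below the lowest Mock RNAi array, but every value lay in the lower mode. Its change was -0.71 ± 0.23 (SE, limma adjusted p = 0.137), and without Mock RNAi replicate 1, the highest array, it was -0.41. *Rab3*, the small GTPase of synaptic vesicles, and synapsin (*Syn*), which tethers vesicles in the reserve pool, were equally low, at 1.87 and 2.05 in Mock RNAi, 1.78 and 1.94 in Ph RNAi and 0.74 and 0.43 in wing disc.

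Of the active zone genes, *unc-13* and *cac* were in the upper mode in BG3 cells, whereas the scaffold genes *brp* and *Rim* were not. *unc-13* stood at 9.82, 10.92 and 10.25 on the Mock RNAi arrays and at 11.49, 11.37 and 10.9 on the Ph RNAi arrays. On the wing disc arrays it stood at 7.07, 7.24 and 7.23. Of the Ph RNAi arrays 2 were above every Mock RNAi array, and the remaining array fell just below Mock RNAi replicate 2. The means were 10.33 ± 0.55 and 11.25 ± 0.31 (SD, n = 3 each), and the change of 0.92 ± 0.27 (SE, 1.89-fold) had an unadjusted limma p of 0.0061 and an adjusted p of 0.0926. Without Mock RNAi replicate 2 the change of *unc-13* was 1.21 with an adjusted p of 0.0234, and over all alternatives the adjusted p ran from 0.0234 to 0.253. *unc-13* ranked at percentile 89.9 in Mock RNAi, 95.1 in Ph RNAi and 80.3 in wing disc, and it was the only one of the vesicle release and active zone genes in the upper mode in the disc.

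*cac*, the presynaptic voltage-gated calcium channel, was close to the minimum between the modes and varied among arrays. It stood at 4.07, 6.17 and 5.42 in Mock RNAi, at 4.36, 5.29 and 4.78 in Ph RNAi, and at 0.59, 0.61 and 0.5 in wing disc. Mock RNAi replicate 1 was lowest and replicate 2 highest, and the Ph RNAi arrays lay between them. The change of -0.41 ± 0.48 (SE, limma adjusted p = 0.749, interval -1.48 to 0.66) turned to 0.07 without Mock RNAi replicate 2. Its second probe set was in the lower mode, with means of 1.94 and 1.65 in the BG3 groups. Bruchpilot (*brp*), the structural protein of the T-bar, had means of 2.24, 2.3 and 1.27 in Mock RNAi, Ph RNAi and wing disc, and *Rim*, which links vesicles to calcium channels, 2.64, 2.53 and 0.8.

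Relatives of the release genes that serve membrane fusion in many kinds of cell were in the upper mode in all groups. *Syb*, the widely expressed synaptobrevin, had means of 13.28, 13.37 and 9.93 in Mock RNAi, Ph RNAi and wing disc, where *nSyb* was in the lower mode. *Snap24* (7.31, 8.13 and 4.97) and *Snap29* (11.46, 11.24 and 7.33) were in the upper mode where *Snap25* was not. The Sec1/Munc18 gene *Rop*, needed for secretion in general as well as at synapses, had means of 9.13, 9.73 and 6.21. None of these was called after Ph RNAi (limma adjusted p = 0.754 for *Syb*, 0.158 for *Snap24*, 0.589 for *Snap29* and 0.184 for *Rop*).

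Rabphilin (*Rph*), an effector of Rab3 and Rab27, and synaptogyrin (*Syngr*), a membrane protein of vesicles, had the same pattern over the groups as *cpx*. *Rph* had means of 8.38 in Mock RNAi, 8.77 in Ph RNAi and 0.94 in wing disc, and *Syngr* of 7.98, 6.91 and 0.87. *Syngr* was called lower after Ph RNAi (-1.06 ± 0.27 SE, limma adjusted p = 0.0486), although the call was lost in 8 of 14 alternatives, with adjusted p values from 0.0174 to 0.211. *Tomosyn*, which inhibits SNARE assembly, was called higher, at 7.11, 7.77 and 7.05 in Mock RNAi and 8.57, 8.85 and 8.93 in Ph RNAi (1.47 ± 0.26 SE, adjusted p = 0.00766), and it was in the upper mode in wing disc as well, at 6.18.

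**Figure D3:**
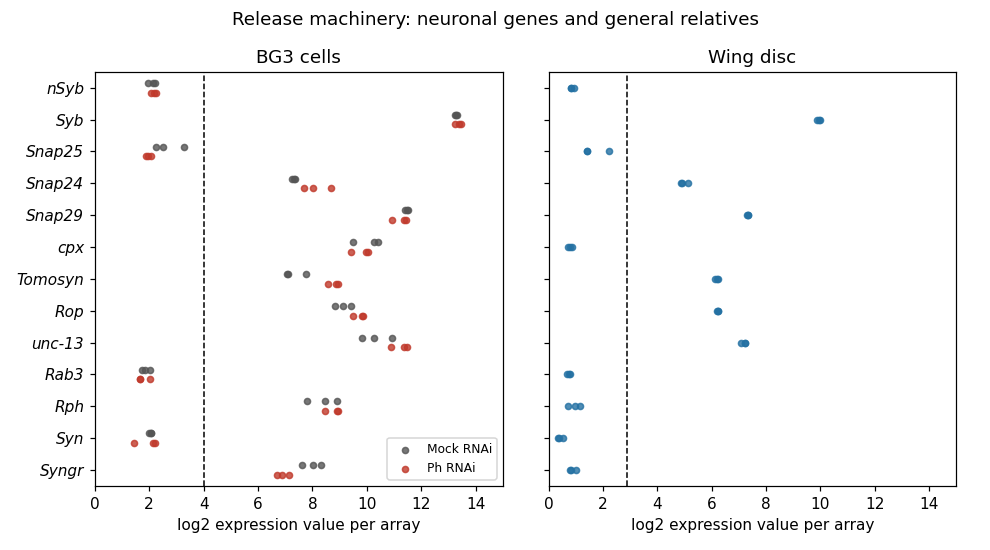
Log2 expression value (x axis) of vesicle release genes and their relatives (rows) on each array, Mock RNAi in grey, Ph RNAi in red and wing disc in blue. *nSyb*, *Snap25*, *Rab3* and *Syn* lie left of the dashed minimum between the modes in both panels, *Syb*, *Snap24* and *Snap29* lie right of it in both, and *cpx*, *Rph* and *Syngr* lie right of it in BG3 cells only.

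The 9 voltage-gated and calcium-activated channels were in the lower mode in every group, and their changes after Ph RNAi ran from -0.22 to 0.22. *para* encodes the voltage-gated sodium channel of the action potential. It stood at 2.37, 2.7 and 2.41 in Mock RNAi and at 2.24, 2.24 and 2.35 in Ph RNAi, so that the groups did not overlap, but the change was only -0.22 ± 0.15 (SE, limma adjusted p = 0.525). The potassium channels *Sh*, *Shab*, *Shaw* and *Shal*, which repolarize the membrane, had Mock RNAi means from 1.8 to 2.35, Ph RNAi means from 1.8 to 2.31 and wing disc means from 0.4 to 0.93. The calcium-activated potassium channel *slo* (1.89, 1.68 and 0.55), the potassium channel *eag* (2.6, 2.4 and 1.02) and the hyperpolarization-activated channel *Ih* (2.14, 2.1 and 0.7) had similarly low means. *sei*, a potassium channel of the ERG type, was nearest to the minimum, with 3.8, 4.34 and 3.65 in Mock RNAi, 3.84, 3.72 and 3.69 in Ph RNAi and 1.32, 1.59 and 1.56 in wing disc. Its groups of BG3 arrays overlapped, and the change was -0.18 ± 0.25 (SE).

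Of the receptor subunits 16 of 17 were measured, and all 16 were in the lower mode in every group. Nicotinic subunits form pentameric cation channels opened by acetylcholine. *nAChRbeta2* and *nAChRalpha5* were the nearest to the minimum in BG3 cells. *nAChRbeta2* stood at 3.69, 4.64 and 3.59 in Mock RNAi and at 3.32, 3.4 and 3.25 in Ph RNAi, below all Mock RNAi arrays, and at 0.34, 0.68 and 0.59 in wing disc. This gene was chosen for description after its values were seen. The change was -0.65 ± 0.29 (SE, limma adjusted p = 0.303), and it was -0.316 without Mock RNAi replicate 2, the array at 4.64. *nAChRalpha5* had means of 3.61, 3.45 and 0.8 in Mock RNAi, Ph RNAi and wing disc. *nAChRalpha7* ranked lowest, at percentile 5.1 in Mock RNAi, 4.3 in Ph RNAi and 3.4 in wing disc, with values between 1.44 and 1.56 on the BG3 arrays. The remaining nicotinic subunits, *nAChRalpha1*, *nAChRalpha2*, *nAChRalpha3* and *nAChRbeta1*, had means between 1.63 and 2.45 in BG3 cells.

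The glutamate receptor subunits were low as well, with small positive changes. The muscle subunits *GluRIIA* and *GluRIIB* had means of 1.75 and 1.69 in Mock RNAi and 1.85 and 1.98 in Ph RNAi. The NMDA receptor subunits *Nmdar1* and *Nmdar2* had means of 1.89 and 2.47 in Mock RNAi and 1.96 and 2.74 in Ph RNAi. The changes of all 4 lay between 0.07 and 0.29, and none had an unadjusted limma p under 0.05. Serotonin receptors, which signal through G proteins, showed the same low levels. *5-HT1A*, *5-HT1B*, *5-HT2A*, *5-HT2B* and *5-HT7* had means between 1.8 and 2.32 in BG3 cells and between 0.4 and 0.74 in wing disc, with changes from -0.19 to 0.04.

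The 7 genes of transmitter synthesis, transport and breakdown were in the lower mode by their group means in BG3 cells and in wing disc. The markers of cholinergic cells, choline acetyltransferase (*ChAT*) and the vesicular transporter *VAChT*, had means of 1.77 and 1.89 in Mock RNAi, 1.82 and 1.92 in Ph RNAi and 1.13 and 0.39 in wing disc. *VGlut*, which loads glutamate into vesicles, had means of 1.81, 1.8 and 0.58, and *Vmat*, which loads monoamines, 2.29, 2.29 and 0.87. Tyrosine hydroxylase (*ple*), the rate-limiting enzyme of dopamine synthesis, had means of 2.08, 1.9 and 0.43. *Ddc*, the decarboxylase that makes dopamine and serotonin and also acts in cuticle tanning, was at 2.07 and 2.02 in the BG3 groups and at 2.3, 2.43 and 2.35 on the wing disc arrays. These *Ddc* values were the closest below the disc minimum of 2.89 of all 43 genes, at percentile 50.4.

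Acetylcholinesterase (*Ace*), which breaks acetylcholine down, had the largest positive change of the 43 genes and the widest spread within a group. It stood at 2.33, 1.9 and 2.29 in Mock RNAi, and at 3.06, 4.29 and 2.07 in Ph RNAi. Replicates 1 and 2 of Ph RNAi were above every Mock RNAi array, and replicate 3 lay within the Mock RNAi range. The change was 0.96 ± 0.43 (SE, 1.95-fold, limma adjusted p = 0.296). Over the alternatives it ran from 0.387, without Ph RNAi replicate 2, to 1.498, without Ph RNAi replicate 3, and *Ace* was called in none of the 13 that gave a value (adjusted p from 0.0513 to 0.568). On the wing disc arrays *Ace* stood at 0.72, 0.76 and 0.6.

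*elav* was in the upper mode in all 3 groups. It stood at 6.05, 7.07 and 6.95 in Mock RNAi, at 7.31, 7.83 and 7.05 in Ph RNAi, and at 7.14, 7.36 and 7.36 in wing disc. Of the Ph RNAi arrays 2 were above every Mock RNAi array. With means of 6.69 ± 0.56 and 7.39 ± 0.4 (SD, n = 3 each), the change of 0.7 ± 0.34 (SE, 1.63-fold) had a limma adjusted p of 0.332, and its interval ran from -0.04 to 1.45. Without Mock RNAi replicate 1 the change of *elav* was 0.383. *elav* ranked at percentile 65.5 in Mock RNAi and 67.4 in Ph RNAi, and at 81.5 in wing disc. The other members of the Elav family, *fne* (1.91, 2.01 and 0.54 in Mock RNAi, Ph RNAi and wing disc) and *Rbp9* (2.11, 2.05 and 0.72), were in the lower mode throughout, as was *futsch*, a neuronal microtubule-associated protein of the MAP1B type (1.92, 1.87 and 1.33). Mock RNAi replicate 1 was the lowest Mock RNAi array for *elav* and likewise for *cpx*, *unc-13* and *cac*, the 4 genes in the upper mode. Its median over all genes was also the lowest of the Mock RNAi arrays (2.799, against 2.976 and 2.893). Its median over probe sets was not (2.23, against 2.227 and 2.208). Of the related genes in the upper mode, it was the lowest Mock RNAi array for *AP-2alpha* but the highest for *Rop*. Whether the low values are particular to the 4 genes was not tested.

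**Figure D4:**
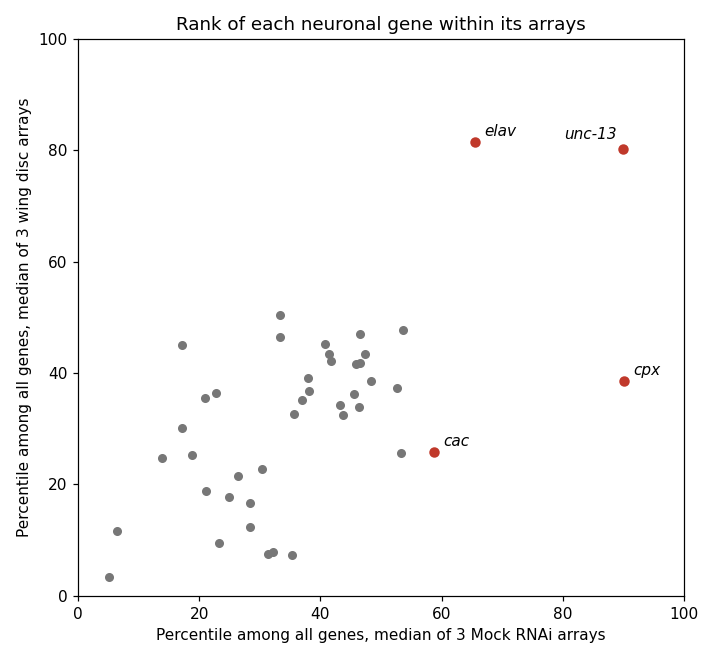
Percentile of each measured neuronal gene among all genes, median of the 3 Mock RNAi arrays (x axis) against the median of the 3 wing disc arrays (y axis), with the 4 genes in the upper mode in BG3 cells in red. *unc-13* (89.9 and 80.3) and *elav* (65.5 and 81.5) rank above the median of all genes in both. *cpx* (90.1 and 38.5) and *cac* (58.7 and 25.8) do so in BG3 cells only, *cac* by a small margin.

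To set the 43 genes among others of the same kind, 6 lists of related genes were examined, of which 180 were measured. Of the 180 genes 9 were called higher and 5 lower after Ph RNAi, and the median change was 0.01. Among all 11982 genes 384 (3.2%) were called higher and 188 (1.57%) lower. The lists were chosen with earlier results of these data known, so these counts are description only. In Mock RNAi 31.1% of the 180 were in the upper mode and in wing disc 32.8%. In Mock RNAi the upper mode held 14 of 24 other active zone and scaffold genes and 15 of 28 other RNA-binding, cytoskeletal and adhesion genes. It also held 20 of 25 other vesicle cycle genes. These vesicle cycle genes include general endocytic genes such as *shi*, the fly dynamin (8.31), and the AP-2 adaptor subunit *AP-2alpha* (9.28). Of 42 other ion channel genes 5 were in the upper mode in Mock RNAi, *Irk1*, *ClC-b*, *ClC-c*, *Best1* and *rpk*. Of 33 other receptor and transmitter genes only *nAChRbeta3*, a nicotinic subunit, was in it, at 4.72, 6.03 and 4.89, and its Ph RNAi arrays stood at 3.97, 3.33 and 3.98. All Ph RNAi arrays of *nAChRbeta3* were below the Mock RNAi arrays, and the change of -1.46 ± 0.37 (SE) just missed the threshold (limma adjusted p = 0.0549). The same held for *nrv3*, on the list of cytoskeletal and adhesion genes, with means of 4.86 and 3.15 (-1.71 ± 0.44 SE, limma adjusted p = 0.0561). These uncalled changes were picked for description after the values were seen.

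The largest rises among the related genes were those of *Nplp2* and *DAT*. *Nplp2* was on the list of neuropeptide genes, but whether it gives rise to neuropeptides was not tested. It went from 3.18, 2.55 and 2.3 in Mock RNAi to 7.43, 8.29 and 8.77 in Ph RNAi, from the lower into the upper mode (5.49 ± 0.39 SE, limma adjusted p = 8.75e-06). *DAT*, the transporter that takes dopamine back up, went from 2.95, 2.4 and 2.86 to 5.86, 7.56 and 5.23 (3.48 ± 0.5 SE, adjusted p = 0.00196), while *ple* and *Vmat* of the same pathway were in the lower mode in both groups. *Nplp2*, *DAT* and *Con* were in the lower mode in Mock RNAi, where the size of a change depends on the background correction. *DAT* was the only call among the 33 receptor and transmitter genes and *Nplp2* the only one among the 28 genes measured of the neuropeptide list.

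Of the 28 measured genes on the list of other RNA-binding, cytoskeletal and adhesion genes, 5 were called higher and 1 lower, with a median change of 0.12 on the log2 scale. The 6 called genes encode adhesion or axon guidance proteins, but others of that kind on the list were not called, among them *robo1* (-0.04), *Ten-m* (0.13), *Ten-a* (0.27), *Dscam1* (0.4) and *Sema1a* (-0.21). The L1-type adhesion molecule neuroglian (*Nrg*) was higher by 2.82 ± 0.34, the netrin receptor *fra* by 2.23 ± 0.34 and fasciclin 1 (*Fas1*) by 1.65 ± 0.23 (SE, limma adjusted p = 0.000594, 0.00289 and 0.0016). *Nrt* was higher by 1.19 (adjusted p = 0.0283) and *Con*, which stayed in the lower mode in Ph RNAi at 3.56, by 1.52 (adjusted p = 0.00123). *NetB*, a netrin and thus a ligand of *fra*, fell by 1.42 on the log2 scale (adjusted p = 0.00511). In wing disc all 6 were in the upper mode, at percentiles from 53.9 for *Con* to 95.1 for *Fas1*, 95.6 for *fra* and 98.0 for *Nrg*. *Grip*, a PDZ domain scaffold protein, rose from 6.09, 5.18 and 4.98 to 8.74, 8.34 and 9.01 (3.28 ± 0.34 SE, adjusted p = 0.000188). The calls of *Irk1*, an inward rectifier potassium channel (-1.08, adjusted p = 0.0315), *Rab27* (-1.11, adjusted p = 0.0198), *wnd*, a kinase of the axon injury response (-1.69, adjusted p = 0.035), and *Nrt* were each lost in 3 to 6 of the alternatives.

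**Figure D5:**
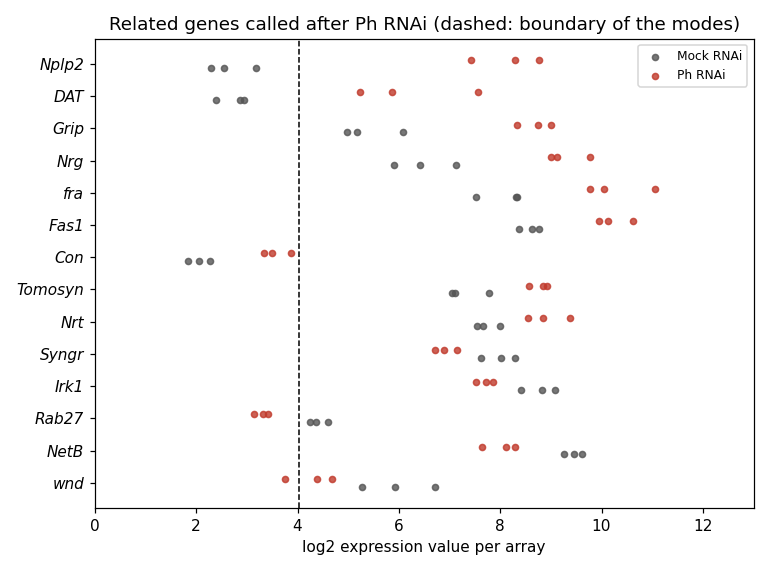
Log2 expression value (x axis) on the Mock RNAi (grey) and Ph RNAi (red) arrays of the 14 related genes called after Ph RNAi (rows). *Nplp2* and *DAT* cross the dashed minimum between the modes at 4.03 upwards and *Rab27* downwards, and *Con* stays left of it.

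Some markers of other cell types were called in the same arrays in which the 43 neuronal genes were not. Among all genes 3.2% were called higher and 1.57% lower. The marker lists were chosen with earlier results of these data known, so their counts are description only. Of 9 measured glia markers 4 were called higher after Ph RNAi, among them *repo*, the transcription factor that defines most glia, from 3.08, 2.6 and 3.69 to 10.25, 10.24 and 10.19. The others called were *nrv2*, *loco* and *Gli*, whereas *moody* had a change of -0.09, *gcm*, *gcm2* and *Gs2* stayed in the lower mode, and *wrapper* had means of 4.92 and 4.03, with all Ph RNAi arrays lower (limma adjusted p = 0.126). The summed linear level of the 9 was 4010 to 5500 in Mock RNAi and 11600 to 13500 in Ph RNAi. Of 12 neuroblast and proneural markers 3 were called higher, *pros*, *SoxN* and *insc*, and the sum went from between 53.4 and 61.4 to between 564 and 1610, while *dpn*, *ase* and *wor* were in the lower mode in both groups. Of 10 hemocyte markers 6 were in the upper mode in Mock RNAi, among them *srp* (10.77), *crq* (10.63) and *vkg* (12.63), while *Hml*, *NimC1* and *Sr-CI* were in the lower mode. *He* was called higher and *vkg* lower, and the sum of the 10 was 13400 to 18500 in Mock RNAi and 7590 to 12400 in Ph RNAi. The highest means of the 10 were those of *vkg* (12.63 and 11.65 in Mock RNAi and Ph RNAi) and *Col4a1* (12.44 and 11.71). Of the 10 changes 5 were positive and 5 negative, and those of *crq* and *Pxn* were 0.04 and 0.03. Of 6 wing disc markers 4 were called higher, *nub*, *Dll*, *tsh* and *dpp*. All 6 had every Ph RNAi array above the Mock RNAi arrays (9.91% of all genes did), and their sum went from between 29.0 and 33.3 to between 235 and 346. By their Ph RNAi means *Dll* (3.93), *vg* (2.97) and *ap* (2.46) stayed in the lower mode. Of 4 muscle markers *twi* was called higher (1.71), and the sum went from between 15.2 and 18 to between 26.5 and 30.9. None of the 4 fat body markers was called. In bulk RNA, fewer cells of a type and less RNA per cell cannot be told apart, and the part of these cell types in the values of the neuronal genes was not tested.

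The wing disc arrays held markers of the disc and, to a degree that differed between arrays, of the fat body. All 6 measured wing disc markers were in the upper mode in the disc. Of the 12 neuroblast and proneural markers 5 were in it, *esg*, *dpn*, *ac* (6.64), *sc* (6.33) and *insc*. The others were in the lower mode in the disc, among them *ato* (1.08), *l(1)sc* (0.57), *ase* (1.83) and *pros* (0.62). All 4 fat body markers had means in the upper mode there, but with a wide spread. *Lsp2* stood at 8.71, 5.68 and 2.34, and the summed linear level of the 4 ran from 11.7 to 907 over the disc arrays. Over the same arrays *elav* ran from 7.14 to 7.36 and *unc-13* from 7.07 to 7.24. The part of fat body RNA in these values was not tested.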

How the data were processed

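The authors made the deposited log2 values with GCRMA, named in the submitters' processing notes without a version. Starting RNA was 200 ng. Of 18952 rows, 183 control rows and 1 blank row were left out. The platform annotation gave 1 symbol to 13647 of the remaining 18768 probe sets, several to 402 and none to 4719, and 13544 of the 13647 matched a RefSeq gene number (0 symbols changed). Where a gene had several probe sets (1094 genes), the one with the highest mean stood for it. The boundary of the modes is the density minimum of all values of a tissue.

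Ph RNAi and Mock RNAi were compared on the 6 BG3 arrays in limma 3.58.1 (R 4.3.3, lmFit, then eBayes with trend), two-sided, with Benjamini-Hochberg adjustment over 11982 genes and a threshold of 0.05. SE values are moderated, intervals are 95%. The procedure was tried on simulated data with independent noise, in which only genes with a Mock RNAi mean above the boundary were changed. That trial covers neither changes of lower-mode genes nor effects shared by an array. The array number limits the precision, since 3 against 3 arrays allow no exact permutation p below 0.1. No detection calls were used. Arrays correlated at r = 0.9904 to 0.9982 within groups and 0.9744 to 0.9869 between Mock RNAi and Ph RNAi. The actin control, 3′ minus 5′ signal on the log2 scale, lay between 1.73 and 2.258 on the Mock RNAi arrays, between 1.384 and 2.062 on the Ph RNAi arrays and between 3.122 and 3.343 on the disc arrays. The methods name more wing disc replicates than the 3 analysed here.

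The genes, the related lists and the marker lists were chosen with earlier results of these data known. The text gives all measured members by role, in full those in the upper mode, with an unadjusted p under 0.05 or close to the minimum, and every called gene of the related lists. Alternatives were the limma prior, normalization, a filter on low values, the choice of probe set, the replicate block, the boundary and leaving out each array.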

Additional observations from a re-analysis of the deposited data

How the results depend on the processing

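The count of 4 neuronal genes in the upper mode in Mock RNAi was 3 with the mean of a gene's probe sets. It was 5 without Mock RNAi replicate 1 and 6 without replicate 3. In Ph RNAi the count of 4 fell to 3 with the boundary raised by 1 and with the mean of probe sets. The count stayed at 4 in both groups when all 3 arrays had to pass the boundary. In wing disc it stayed at 2 with each of these alternatives and without each disc array. Lowering the boundary by 1 gave 7 genes in Mock RNAi and 8 in Ph RNAi. Of 14 alternatives for the Ph RNAi contrast, 2 called a neuronal gene. The count called higher was 0 to 1 when single arrays were left out, with *unc-13* called without Mock RNAi replicate 2. With the replicate block 1 was called higher (*unc-13*, adjusted p = 0.0271) and 1 lower (*Snap25*, adjusted p = 0.0244), and 503 of all genes were called higher and 263 lower. Deviations of same-numbered arrays correlated at r = 0.161, 0.162 and -0.174. With 3 arrays per group these mixed values cannot decide whether the numbers pair the samples. Median centring moved the median change of all genes from -0.03 to -0.213, called 339 genes higher and 507 lower and brought the smallest adjusted p of the neuronal genes to 0.0521. Leaving out single arrays gave 266 to 378 genes called higher and 88 to 158 lower. The change of *cac*, -0.984 to 0.069 over these, was positive at 0.069 without Mock RNAi replicate 2. The cause of these shifts was not tested. Signals in the lower mode limit what can be said of 39 of the 43 genes, in which a fall could hardly be seen.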
